A study of Mus musculus with 16 samples.

Results

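The genes described are 10 regulators of energy metabolism: the nuclear receptors Ppara, Ppard, Esrra, Rxra and Rxrg, the coactivators Ppargc1a and Ppargc1b, the nuclear respiratory factor subunit Gabpa, and the mitochondrial DNA factors Tfam and Tfb2m. They were chosen by name, with earlier results of these data known. Every probe set (a group of short oligonucleotides that together measure 1 transcript) whose platform annotation gives exactly 1 of these symbols was taken. This gave 16 probe sets of 22626 on the array, for 10 genes of 12393 with a probe set of 1 symbol. Of these, 15 probe sets for 9 genes were bright enough to be tested, and the single probe set of Ppard was not.

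The study measured total RNA of the left ventricle of C57BL/6J mice with Affymetrix mouse 430A arrays, and by its title the question is whether males and females react differently, soon after the operation, to a raised load. Transverse aortic constriction (TAC), a band that narrows the aortic arch, makes the left ventricle pump against a raised pressure. There were 4 groups of 4 arrays each, 1 animal per array: male TAC and male sham, then female TAC and female sham. All mice were labelled as 12 to 14 weeks old, and RNA was isolated 14 days after the operation. The labels name no transgene or deletion in any group, so the animals of a sex differ by the operation alone, as labelled.

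PPARα, PPARδ and ERRα are transcription factors that bind DNA at the promoters of fatty acid oxidation and respiratory chain genes. The PPARs do so as pairs with a retinoid X receptor, and the coactivators PGC-1α and PGC-1β, encoded by Ppargc1a and Ppargc1b, bind to the receptors and raise transcription of their targets. PGC-1α also acts through the nuclear respiratory factors NRF-1 and GABP, which drive genes for the transcription and copying of mitochondrial DNA. The adult heart takes most of its energy from fatty acids, and this network is known for keeping its mitochondrial capacity high.

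The deposited signal intensities had been scaled to the same trimmed mean on all 16 arrays (500.2 to 500.3), and array medians lay between 189.7 and 222.3. All 10 cardiomyocyte markers were above the signal limit and all 7 skeletal muscle markers were below it. Of 6 adipocyte markers on the array 4 were above it, with summed signals of 13853 to 17785 in male TAC against 17481 to 19691 in male sham and 15276 to 20012 in female TAC against 17709 to 19847 in female sham, while Adipoq and Ucp1 were below it. The summed cardiomyocyte marker signal was 266654 to 320378 in male TAC arrays, against 303272 to 365448 in male sham arrays, and 234368 to 295057 in female TAC arrays, against 314341 to 334708 in female sham arrays. Summed fibroblast markers (9 of 9 above the limit) were higher without overlap, at 31016 to 53818 in male TAC against 17593 to 21379 in male sham, and 29298 to 42923 in female TAC against 20920 to 24371 in female sham. Taken singly, 5 of these 9 markers rose and 1 fell in males, and 4 rose and 0 fell in females. Of the macrophage markers, 4 of 9 rose in males and 2 of 9 in females. The share of these shifts in the members' values was not tested. In whole tissue, fewer cells of a type and less RNA per cell cannot be told apart. RNA measures moved with the operation too. The 5′ signal of 18S rRNA was 10.34 ± 1.89 (log2, SD, n = 4) in male TAC against 13.35 ± 0.50 in male sham, and 10.20 ± 0.60 in female TAC against 11.96 ± 0.91 in female sham, and male TAC 5 lay apart from the other male TAC arrays at 13.16. Gapdh control signals from the 3′ end, divided by those from the 5′ end, averaged 1.08 ± 0.07 in male TAC against 0.885 ± 0.039 in male sham, and 0.989 ± 0.030 in female TAC against 0.865 ± 0.058 in female sham, with no overlap in either sex.

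TAC was accompanied by lower signals of a few of these regulators and by rises of none of them. Fold changes are differences of group means of log2(signal + 16), TAC minus sham, and a probe set was called where the limma adjusted p was below 0.05 over all 13576 probe sets tested. In males 5 of 15 member probe sets fell (3 of Ppargc1a, 1 of Tfb2m and 1 of Gabpa), where 17.8% of all probe sets tested were called and 9.77% fell. In females 3 of 15 fell (1 of Ppargc1a and both of Gabpa), where 15.1% of all were called and 8.6% fell. Averaged over both sexes, 5 of 15 fell (2 of Ppargc1a, 1 of Tfb2m and both of Gabpa), where 28.7% of all were called and 15.8% fell. The median fold change of the 15 probe sets was -0.49 in males and -0.19 in females, beside -0.03 in each sex over all probe sets tested. Signals of TAC and sham did not overlap for 2 of the 15 in males and for 4 of the 15 in females, beside 19.6% and 19.9% of all probe sets tested. With so few probe sets, several of them on the same gene, and members chosen with earlier results of these data known, these counts are descriptions only. With the 18S signal as a covariate 1, 3 and 2 of the 15 were called in males, females and over both sexes, where the calls over all 13576 probe sets dropped to 997, 1528 and 1917 (2422, 2045 and 3890 without it). With the Gapdh ratio as a covariate 0 of the 15 were called by limma in each, where 398, 498 and 640 of all were. The lowest adjusted p was 0.0543 for 1450664_at of Gabpa in females, at a log2 fold change of -0.99, SE 0.28, against -0.77, SE 0.20, without the covariate. Since that ratio did not overlap between TAC and sham in either sex, the ratio and the operation cannot be told apart. The 18S signal did not overlap in females (log2, TAC up to 10.74, sham from 10.75), so it cannot be told apart from the operation there. In males only male TAC 5, at 13.16, lay within the sham range of 12.65 to 13.82. The Ppara, Esrra, Rxra, Rxrg, Ppargc1b and Tfam probe sets were called in no comparison.

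With each array centred on its median instead, the median over all probe sets in females was 0.08 in place of -0.03, and the share of calls that were rises went to 64.4% in females (42.9% as scaled by the authors), 54.7% in males (45.2%) and 60.3% over both sexes (44.9%). The direction of every called member was the same under that centring, and 2 of the 5 male calls remained past the threshold. Over all probe sets, 2277 were called in males under it, against 2422 as scaled by the authors.

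**Figure D1:**
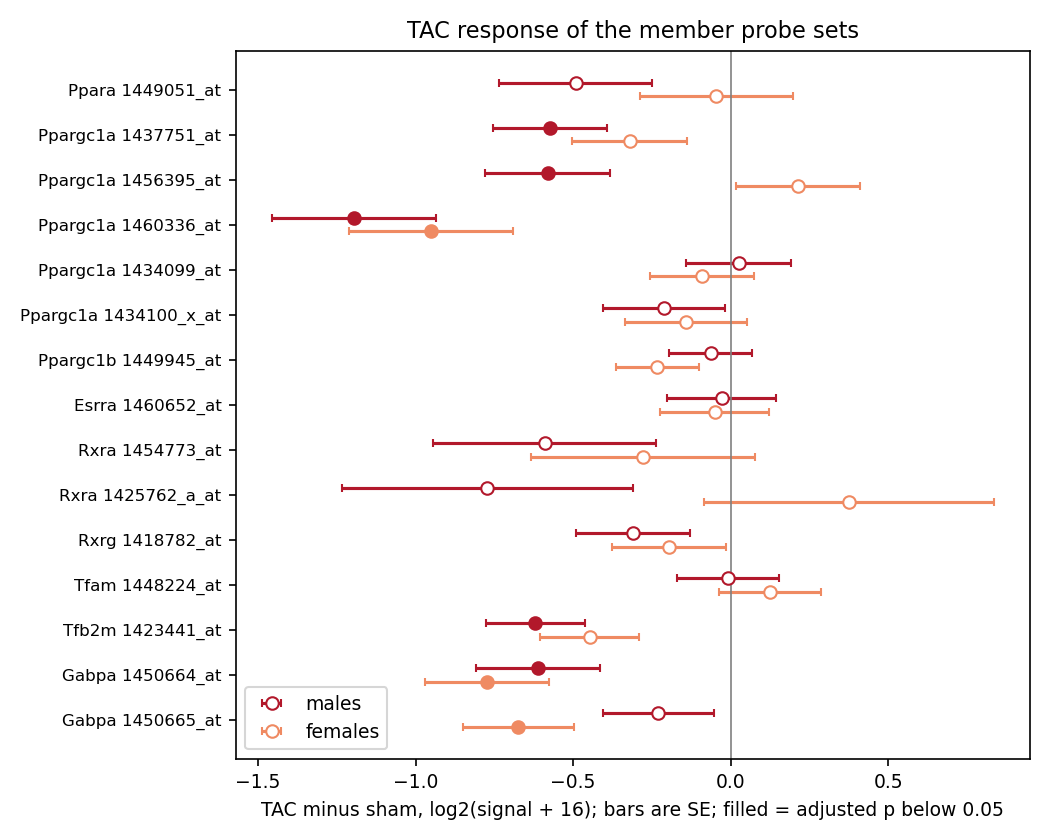
TAC minus sham in log2(signal + 16) for the 15 member probe sets that were tested, with males in dark red above females in orange, bars for the standard error and filled points for adjusted p below 0.05. The 8 filled points all lie left of 0, and 1460336_at of Ppargc1a lies farthest left in both sexes, at -1.20 in males and -0.95 in females.

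Ppargc1a encodes PGC-1α, the inducible coactivator of the family, and its 5 probe sets did not give a single picture. On 1460336_at the signals were 561.5, 378.2, 411.4 and 382.4 in male TAC ventricles, against 1566.2, 742.2, 658.2 and 1301.4 in male sham ventricles. In females they were 476.9, 412.8, 466.1 and 267.0 in TAC, against 1131.8, 549.2, 766.5 and 778.8 in sham. Every TAC array was below every sham array of its sex. The fall was 2.29-fold in males (log2 -1.20, SE 0.26, limma adjusted p = 0.00297) and 1.93-fold in females (log2 -0.95, SE 0.26, limma adjusted p = 0.0168). Over both sexes it was 2.10-fold (limma adjusted p = 0.000168). The call in females was lost without female TAC 5 (limma adjusted p = 0.0658) or without female sham 1 (0.0685), while that in males held with each array left out. With the Gapdh ratio as a covariate this probe set missed the threshold in males (log2 -0.55, SE 0.45, limma adjusted p = 0.57), in females (log2 -0.51, SE 0.35, limma adjusted p = 0.487) and over both (log2 -0.53, SE 0.36, limma adjusted p = 0.444).

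The brightest Ppargc1a probe set, 1437751_at, read 1042.4, 705.7, 759.4 and 1058.7 in male TAC, against 1289.3, 1421.5, 1516.0 and 1070.2 in male sham. In females it read 1172.3, 941.6, 1496.9 and 774.5 in TAC, against 1567.7, 1259.9, 1262.8 and 1262.2 in sham. The male groups came close without overlapping, since male TAC 5 and male sham 4 differed by little, and in females 3 of 4 TAC arrays lay below every sham array while female TAC 3 did not. It fell in males (log2 -0.57, SE 0.18, limma adjusted p = 0.0338) and over both sexes (log2 -0.45, SE 0.13, limma adjusted p = 0.0127), and in females the value was -0.32 (SE 0.18, limma adjusted p = 0.269). The male call was lost without any of male TAC 2 (limma adjusted p = 0.117), male TAC 4 (0.091), male sham 1 (0.0585), male sham 2 (0.0811) or male sham 3 (0.103). It was also lost with median centring, without the intensity trend, with a replicate block (limma adjusted p = 0.0754) and with either covariate. The call over both sexes was lost with the 18S covariate (log2 -0.32, SE 0.20, limma adjusted p = 0.329) or the Gapdh covariate (log2 -0.10, SE 0.25, limma adjusted p = 0.883).

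On 1456395_at the male and female values had opposite signs. Signals were 761.8, 594.3, 525.8 and 823.8 in male TAC, against 750.1, 1067.9, 1401.1 and 901.7 in male sham. They were 993.0, 915.4, 1208.4 and 739.3 in female TAC, against 864.1, 759.3, 656.8 and 1029.3 in female sham. Both pairs of groups overlapped. The signal fell in males (log2 -0.58, SE 0.20, limma adjusted p = 0.0475), and in females the value was 0.21 (SE 0.20, limma adjusted p = 0.532). The female response minus the male response was 0.79 (SE 0.28, unadjusted p = 0.0102), the lowest unadjusted p among the members, but over all probe sets the limma adjusted p was 0.66, so a difference between the sexes was not shown. The male call lay at the threshold and was lost without any of 9 arrays, at limma adjusted p from 0.0539 without female sham 1 to 0.18 without male sham 3. It was also lost with 8 of the 12 other settings. The others of these 9 arrays were male TAC 2 and 4, male sham 2 and 4, female TAC 1 and 2 and female sham 2.

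The other two Ppargc1a probe sets, 1434099_at and 1434100_x_at, were designed from 1 and the same sequence record and were not called. Their TAC minus sham values in males were 0.03 (SE 0.17) and -0.21 (SE 0.19), and in females -0.09 and -0.14, with limma adjusted p between 0.513 and 0.94 among these 4 values. On 1434099_at the signals were 467.3, 368.2, 400.0 and 472.1 in male TAC, against 522.3, 298.5, 490.9 and 393.1 in male sham. Female groups read higher, at 520.5, 502.4, 531.4 and 454.2 in TAC, against 586.9, 572.9, 485.5 and 501.6 in sham. In shams, female minus male on this probe set was 0.35 (limma adjusted p = 0.472). On 1434100_x_at the signals were 255.8, 375.1, 458.9 and 525.8 in male TAC, against 550.5, 378.0, 532.6 and 385.0 in male sham. They were 523.2, 403.1, 534.8 and 442.4 in female TAC, against 487.5, 573.2, 511.0 and 525.7 in female sham, and the groups of each sex overlapped. Across the 16 arrays the 5 probe sets correlated with each other at Pearson r from 0.11 to 0.70, highest for the pair 1437751_at and 1456395_at, a description that includes the group differences. The annotation used here does not say which part of the transcript each probe set covers, so whether they measure different isoforms was not tested.

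**Figure D2:**
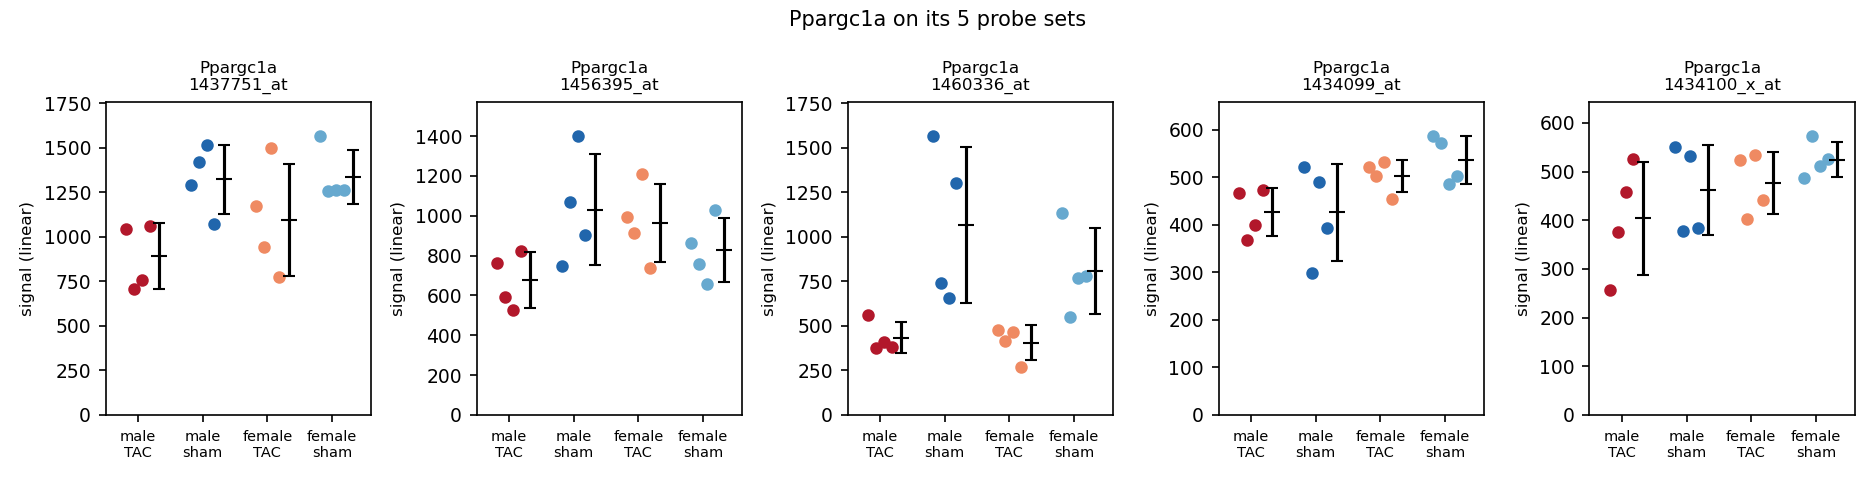
Signal of the 5 Ppargc1a probe sets on a linear axis from 0, each point 1 array, with the group mean and SD beside it, for male TAC, male sham, female TAC and female sham. On 1460336_at all TAC points lie below the sham points of their sex, while on 1434099_at and 1434100_x_at the groups overlap in both sexes.

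Ppargc1b encodes PGC-1β, the close relative of PGC-1α, and was not called. Its signals were 1496.2, 2026.2, 1935.7 and 2055.8 in male TAC, against 1930.9, 1972.5, 2046.3 and 1846.9 in male sham. They were 1729.7, 2280.2, 1628.8 and 2280.9 in female TAC, against 2181.8, 2622.0, 2085.5 and 2349.6 in female sham. TAC and sham overlapped in both sexes. The value was -0.06 in males (SE 0.13, limma adjusted p = 0.799) and -0.23 in females (SE 0.13, limma adjusted p = 0.265). All 4 female sham arrays lay above all 4 male sham arrays, a difference of 0.24 (SE 0.13, limma adjusted p = 0.561) that did not pass the test.

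Among the receptors, Ppara encodes PPARα, the main fatty acid sensor of the heart. Its signals were 522.6, 498.2, 529.5 and 806.3 in male TAC, against 825.5, 615.5, 770.6 and 1147.1 in male sham. In females they were 1096.9, 840.0, 578.4 and 417.2 in TAC, against 733.5, 615.1, 658.1 and 855.9 in sham. In males 3 of 4 TAC arrays lay below every sham array, and male TAC 5 lay within the sham range. Female TAC arrays were spread widest, with the highest and the lowest signals of the females among them. The value was -0.49 in males (SE 0.24, limma adjusted p = 0.18) and -0.05 in females (SE 0.24, limma adjusted p = 0.931), and the female response minus the male one was 0.45 (SE 0.34, limma adjusted p = 0.866). The group means were 589 ± 145 in male TAC, 839.7 ± 223 in male sham, 733 ± 299 in female TAC and 716 ± 106 in female sham (SD, n = 4 each), so the order ran down through male sham, female TAC, female sham and then male TAC, and each difference between neighbours in that order was below the larger of their SDs.

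The single probe set of Ppard, which encodes the broadly expressed PPARδ, was brighter than only 1.26% of all probe sets on the array and was below the signal limit. Signals were 12.9, 7.8, 19.1 and 13.8 in male TAC, against 12.0, 14.0, 10.5 and 14.8 in male sham, and 6.5, 6.8, 7.3 and 7.3 in female TAC, against 11.8, 8.1, 16.7 and 9.8 in female sham. The female TAC arrays were lower without overlap, at signals near the bottom of the scale. In the same model without the filter the values were 0.02 in males (SE 0.22, limma adjusted p = 0.981) and -0.26 in females (SE 0.22, limma adjusted p = 0.594). A probe set this dim cannot tell an unexpressed gene from one it measures poorly.

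Esrra encodes ERRα, the orphan receptor through which PGC-1 coactivators reach respiratory chain genes, and its signals hardly separated the groups. They were 1243.9, 1333.1, 1135.7 and 1111.6 in male TAC, against 1150.9, 1723.3, 964.8 and 1183.3 in male sham. In females they were 845.8, 1453.4, 942.9 and 1047.3 in TAC, against 1137.5, 977.5, 1291.8 and 975.2 in sham. The arrays of all 4 groups overlapped. The value was -0.03 in males (SE 0.17, limma adjusted p = 0.936) and -0.05 in females (SE 0.17, limma adjusted p = 0.89). These small values changed sign with some settings, so no direction is given for them.

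The retinoid X receptors, partners of the PPARs, were not called. Rxra on 1454773_at read 82.0, 239.5, 431.4 and 464.6 in male TAC, against 410.0, 389.8, 279.7 and 525.8 in male sham. In females it read 268.5, 224.4, 320.4 and 349.8 in TAC, against 412.9, 381.1, 252.6 and 382.7 in sham. Male TAC 1 was far below the other arrays, and the values were -0.59 in males (SE 0.36, limma adjusted p = 0.285) and -0.28 in females (SE 0.36, limma adjusted p = 0.667). The second Rxra probe set, 1425762_a_at, read 237.9, 128.2, 335.4 and 184.9 in male TAC, against 270.2, 367.3, 383.8 and 485.1 in male sham. In females it read 292.0, 378.6, 400.9 and 99.5 in TAC, against 413.5, 140.7, 372.0 and 63.3 in sham. It overlapped between the groups of each sex and gave -0.77 in males (SE 0.46, limma adjusted p = 0.281) and 0.37 in females (SE 0.46, limma adjusted p = 0.654). Its signals in female sham arrays ranged from 63.3 to 413.5, wider than in any other group of a receptor probe set on a fold scale, and across the 16 arrays both Rxra probe sets correlated at r = 0.02. Rxrg, the retinoid X receptor form known from muscle, read 476.8, 487.3, 559.5 and 448.4 in male TAC, against 693.2, 624.4, 505.4 and 643.4 in male sham. In females it read 481.7, 680.6, 510.1 and 519.4 in TAC, against 803.3, 410.1, 635.1 and 721.1 in sham. Groups overlapped in both sexes, and the values were -0.31 in males (SE 0.18, limma adjusted p = 0.272) and -0.19 in females (SE 0.18, limma adjusted p = 0.536).

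**Figure D3:**
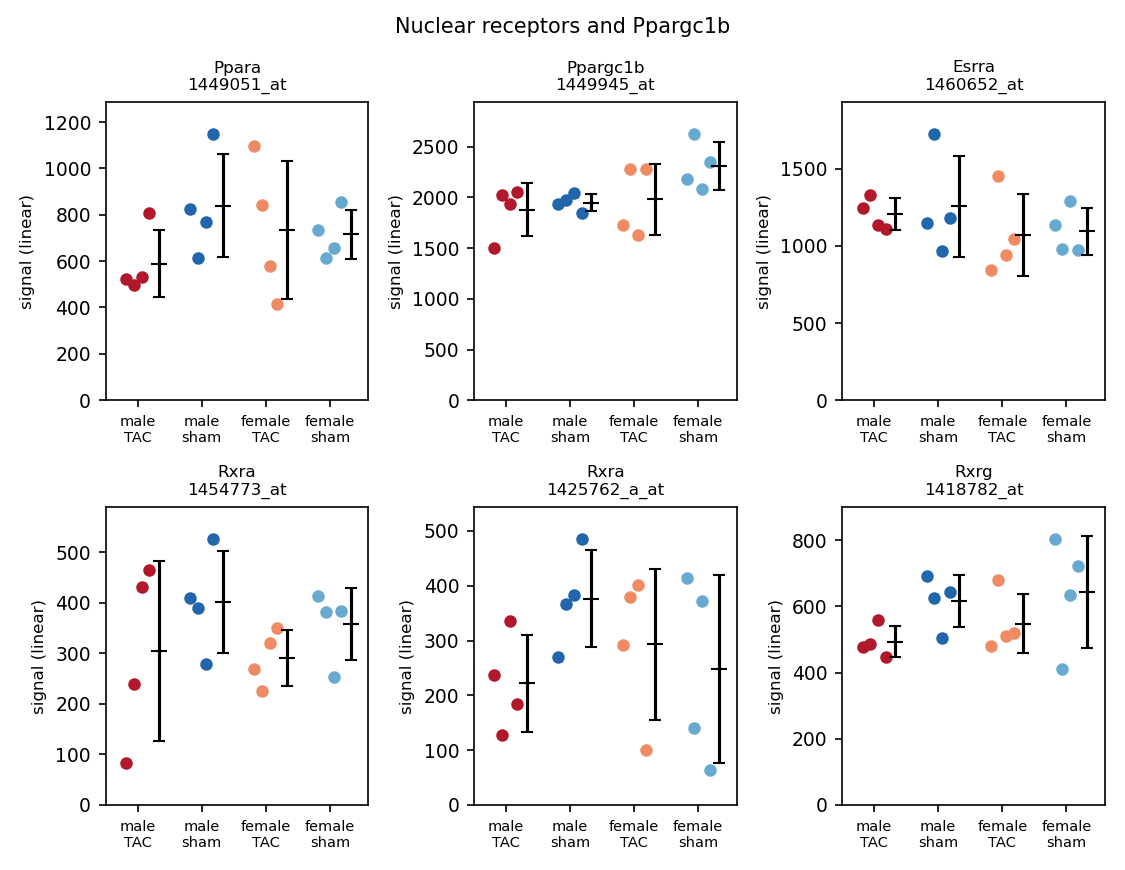
Signal of the tested receptor probe sets and of Ppargc1b on a linear axis from 0, each point 1 array with the group mean and SD beside it, for male TAC, male sham, female TAC and female sham. TAC and sham points overlap in every panel and in both sexes, and male TAC 1 lies at 82 on 1454773_at of Rxra.

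Gabpa encodes the DNA-binding subunit of GABP (also called NRF-2), an ETS family factor known to act on promoters of mitochondrial transcription factors. The promoters of 9 of the 10 members were read from RefSeq (GRCm38.p6; 11 start sites) and searched on both strands, 250 bases before each start, for the ETS core CGGAAG, the NRF-1 core GCATGCGC, the nuclear receptor half-site AGGTCA and the ERR element TCAAGGTCA, which contains that half-site. The ETS core was found in Gabpa, Tfb2m, Tfam and Ppard. It was present in 13.6% of the 32851 RefSeq start sites, the NRF-1 core in 2.26%, the half-site in 14% and the ERR element in 0.387%. The NRF-1 core was found in Ppara (2 overlapping matches, 1 on each strand) and Esrra, the half-site at 1 start site each of Rxra and Rxrg, the ERR element in none and none of the 4 in Ppargc1a. In Ppard the ETS core lies 100 to 95 bases before the start, and that promoter is not shown. The 100 bases before the start are shown for Gabpa, Tfb2m and Tfam. Each holds the ETS core, the motif of the factor that Gabpa encodes, in capitals (CTTCCG is the same core on the opposite strand). They lie at chr16:84835024-84835123 on the plus strand for Gabpa, at chr1:179546277-179546376 on the minus strand for Tfb2m and at chr10:71238045-71238144 on the minus strand for Tfam, each written 5′ to 3′ in the direction of its gene. A match of letters is a description and not a shown binding site.
Gabpa: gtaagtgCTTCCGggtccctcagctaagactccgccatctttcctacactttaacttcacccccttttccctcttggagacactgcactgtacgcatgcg
Tfb2m: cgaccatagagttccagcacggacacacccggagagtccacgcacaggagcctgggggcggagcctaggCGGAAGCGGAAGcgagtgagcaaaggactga
Tfam: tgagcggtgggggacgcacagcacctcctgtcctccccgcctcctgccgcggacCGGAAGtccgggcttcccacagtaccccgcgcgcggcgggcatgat

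Gabpa fell over both sexes on each of its probe sets. On 1450664_at the signals were 565.7, 376.2, 401.3 and 354.7 in male TAC, against 712.9, 540.4, 689.2 and 658.5 in male sham. In females they were 284.1, 502.7, 406.7 and 265.2 in TAC, against 512.6, 732.9, 647.9 and 587.0 in sham. Female TAC lay wholly below female sham, while in males only male TAC 1 reached into the sham range. It fell 1.53-fold in males (log2 -0.61, SE 0.20, limma adjusted p = 0.0358), 1.71-fold in females (log2 -0.77, SE 0.20, limma adjusted p = 0.0106) and 1.62-fold over both (limma adjusted p = 0.000762). The male call was lost without any of male TAC 2 (0.0941), male TAC 4 (0.0709), male TAC 5 (0.094), male sham 1 (0.0876), male sham 3 (0.0864) or male sham 4 (0.0717), each a limma adjusted p. It was also lost with median centring (0.0551), without the filter (0.0578), with a replicate block (0.1341), with the 18S covariate (log2 -0.81, SE 0.29, limma adjusted p = 0.1) and with the Gapdh covariate (log2 -0.93, SE 0.35, limma adjusted p = 0.162). The female call held with each array left out. The call over both sexes was lost with the Gapdh covariate (log2 -0.96, SE 0.28, limma adjusted p = 0.0572).

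On 1450665_at, from the same sequence record, the signals were 218.8, 324.3, 365.9 and 292.5 in male TAC, against 317.0, 337.5, 358.2 and 388.4 in male sham. They were 275.1, 214.9, 230.8 and 201.0 in female TAC, against 394.5, 386.5, 335.0 and 386.1 in female sham. The female groups stood well apart and the male groups overlapped. It fell 1.60-fold in females (log2 -0.67, SE 0.18, limma adjusted p = 0.0126), and the value in males was -0.23 (SE 0.18, limma adjusted p = 0.418). The female response minus the male one was -0.44 (SE 0.25, limma adjusted p = 0.814), so the responses were not shown to differ. Over both sexes this probe set fell 1.37-fold (log2 -0.45, SE 0.12, limma adjusted p = 0.00945). That call was lost with the 18S covariate (log2 -0.46, SE 0.20, limma adjusted p = 0.133) and with the Gapdh covariate (log2 -0.29, SE 0.26, limma adjusted p = 0.585), and the female one with the Gapdh covariate (log2 -0.55, SE 0.25, limma adjusted p = 0.264). Over all arrays both Gabpa probe sets correlated at r = 0.53, and after subtraction of the group means at -0.41.

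Tfb2m, which encodes a factor that starts transcription of mitochondrial DNA, fell in males and over both sexes. Its signals were 744.7, 801.7, 709.4 and 1129.5 in male TAC, against 1580.1, 1118.0, 1082.6 and 1435.9 in male sham. They were 1002.9, 1057.3, 941.0 and 894.4 in female TAC, against 1166.0, 1256.1, 1605.8 and 1335.6 in female sham. Female TAC and sham did not overlap, and in males only male TAC 5 lay within the sham range. It fell 1.54-fold in males (log2 -0.62, SE 0.16, limma adjusted p = 0.00887) and 1.45-fold over both sexes (limma adjusted p = 0.00105). In females the value was -0.45 (SE 0.16, limma adjusted p = 0.0609), and it passed without male TAC 5 (limma adjusted p = 0.0334), an array of neither female group that enters the shared estimate of the spread. The male call held with each array left out. With the 18S covariate the calls were lost in males (log2 -0.22, SE 0.20, limma adjusted p = 0.584) and over both sexes (log2 -0.22, SE 0.15, limma adjusted p = 0.384). With the Gapdh covariate they were lost at values about as large as without it, in males (log2 -0.66, SE 0.29, limma adjusted p = 0.228) and over both (log2 -0.57, SE 0.23, limma adjusted p = 0.168).

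Tfam, which packages mitochondrial DNA and takes part in its transcription, was not called in either sex. Its signals were 920.9, 762.9, 807.5 and 668.5 in male TAC, against 899.5, 814.0, 705.5 and 749.8 in male sham. They were 652.8, 1105.3, 687.3 and 700.5 in female TAC, against 651.3, 746.4, 799.6 and 628.0 in female sham. Groups overlapped in both sexes, and female TAC 2 was the highest of all arrays. The value was -0.01 in males (SE 0.16, limma adjusted p = 0.982) and 0.12 in females (SE 0.16, limma adjusted p = 0.672), small enough that the sign changed with some settings. A difference between the genes' responses was not tested.

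**Figure D4:**
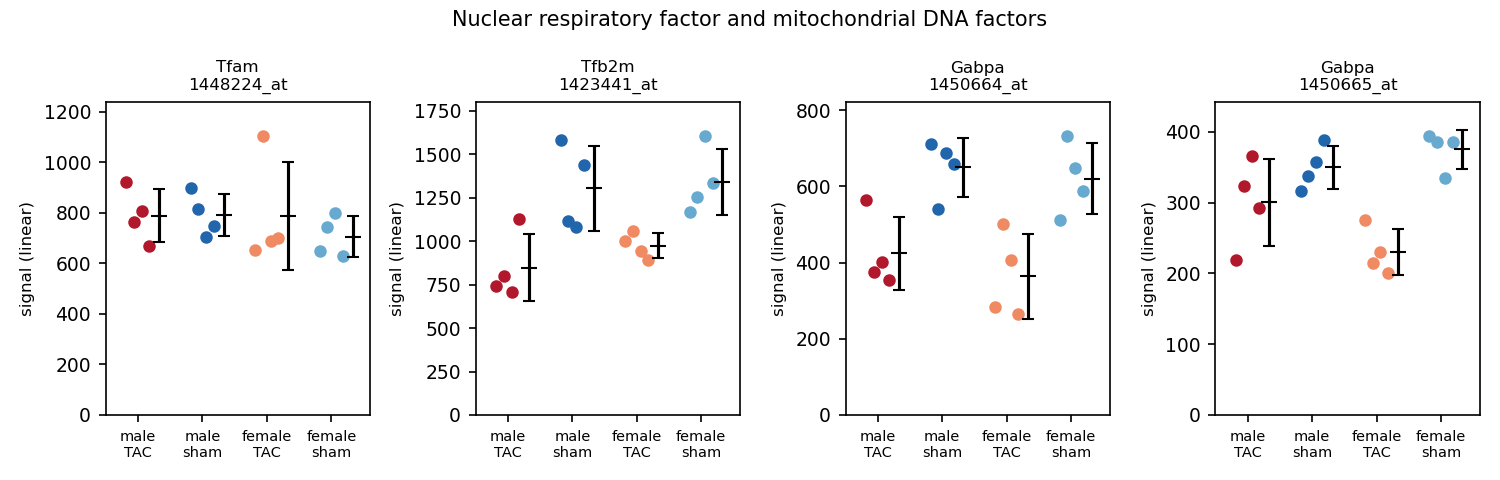
Signal of Tfam, Tfb2m and both Gabpa probe sets on a linear axis from 0, each point 1 array with the group mean and SD beside it, for male TAC, male sham, female TAC and female sham. Female TAC points lie below all female sham points for Tfb2m and both Gabpa probe sets, while the Tfam groups overlap.

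The design also asks whether the response differs between the sexes. For the female response minus the male response, 0 of 15 member probe sets passed, where 0% of all 13576 were called by limma; 1 of the 15 and 897 of all had an unadjusted p below 0.05. Female against male within TAC, 0 of 15 passed where 0.0663% of all did, and within sham 0 of 15 where 0.309% did. In each, 1 of the 15 had an unadjusted limma p below 0.05, beside 874 of all 13576 within TAC and 1424 within sham. Within TAC that was 1456395_at of Ppargc1a, higher in females (log2 0.50, SE 0.20, limma adjusted p = 0.718), and within sham 1434099_at of Ppargc1a, given above.

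Many of the genes listed here as targets of these regulators fell after TAC. The lists were chosen with earlier results of these data known, so their counts are descriptions only. Of 28 measured PPAR target genes, 19 fell in males and 19 in females, and 0 rose in either. Over both sexes 23 fell and 1 rose (Cidea, a lipid droplet protein, named after its value was seen). The median was -0.64 in males and -0.56 in females, beside -0.03 in each sex over all probe sets tested. Of all probe sets tested, 9.77% fell in males, 8.6% in females and 15.8% over both, shares that stand beside every count in this paragraph. These shares include dimmer probe sets and several per gene, while each list gene was counted on its brightest probe set. With the dimmest 60% of probe sets left out, 2241, 1949 and 3396 of 9051 were called in either direction in males, females and over both sexes. The Cidea call was lost without any of male TAC 1, male sham 3, female TAC 3 and female sham 1 and 3. It was also lost with the replicate block and with either covariate. The falls with the lowest p over both sexes were the electron transfer enzyme Etfdh (log2 fold change -0.87, SE 0.06, limma adjusted p = 3.84e-09), the thiolase Acaa2 (log2 fold change -0.93, SE 0.09, limma adjusted p = 1.66e-07), and Hadha and Hadhb, the subunits of the mitochondrial trifunctional protein (log2 -0.90 and -0.67). Etfdh averaged 4995 ± 320.0 in male TAC against 9746 ± 522 in male sham, and 5178 ± 338 in female TAC against 8889 ± 392 in female sham (SD, n = 4 each). Of 36 measured ERR and PGC-1 target genes, 14 fell in males, 15 in females and 25 over both sexes, with 0 rises and medians of -0.26 in males and -0.29 in females. They included the citrate cycle enzymes Idh3a (log2 fold change -0.77, SE 0.09, limma adjusted p = 1.33e-06) and Suclg2 (log2 fold change -0.88, SE 0.12, limma adjusted p = 2.01e-05), the ATP synthase subunit Atp5a1 (log2 -0.44) and the complex I subunit Ndufs4 (log2 -0.46). With median centring 8, 8 and 12 of these 36 fell in males, females and over both sexes, with the 18S covariate 2, 10 and 8, and with the Gapdh covariate 0, 3 and 2. Of the PPAR targets 6, 10 and 10 fell with the Gapdh covariate. List medians with that covariate were -0.21, -0.24 and -0.21 for the ERR and PGC-1 targets (-0.26, -0.29 and -0.26 without it) and -0.55, -0.51 and -0.58 for the PPAR targets (-0.64, -0.56 and -0.63 without it), while the calls over all probe sets dropped as given above. Of the cardiomyocyte markers, 4 of 10 fell in males and 7 of 10 in females, where 1 rose, and their part in these counts was not tested.

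The counts among partner regulators and among genes of mitochondrial DNA expression are given as descriptions. Over all probe sets tested, 17.8% were called in males, 15.1% in females and 28.7% over both. Falls alone made up 9.77%, 8.6% and 15.8% of all probe sets tested. Of 24 measured partners, 1 rose and 1 fell in males (Hif1a, the hypoxia-inducible factor, and Lpin1), 1 rose and 1 fell in females (Med1 and Lpin1), and 3 rose and 6 fell over both. Lpin1, a phosphatidate phosphatase that also binds PGC-1α, fell over both sexes (log2 fold change -0.53, SE 0.09, limma adjusted p = 0.000215), as did the coactivator Ncoa1 (log2 -0.47) and the deacetylase Sirt1 (log2 -0.49). Med1, a Mediator subunit, rose (log2 fold change 0.44, SE 0.13, limma adjusted p = 0.0112). The 3 rises and 6 falls were 3 and 3 with median centring, 3 and 4 with quantile normalization and 1 and 1 with the 18S covariate. They were 1 and 3 with the replicate block and 0 and 2 with the Gapdh covariate. There were 3 falls without male sham 3 or without female sham 3. In females the Lpin1 call was lost without any of female TAC 1, 3 and 5 and female sham 1, 2 and 3 (limma adjusted p 0.0612 to 0.124), and the Med1 call without female TAC 2 or 5 or female sham 4 (0.0539 to 0.0588). Of 26 measured genes of mitochondrial DNA expression, 1 rose and 5 fell in males, 0 rose and 3 fell in females, and 1 rose and 5 fell over both. The falls were led by Clpx, a subunit of a mitochondrial protease (log2 fold change -1.20, SE 0.11, limma adjusted p = 7.34e-08), which averaged 573 ± 104 in male TAC against 1348 ± 179 in male sham, and 495 ± 20.5 in female TAC against 1156 ± 164 in female sham (SD, n = 4 each). Mterf3, of the mitochondrial transcription termination factor family (log2 fold change -0.75, SE 0.11, limma adjusted p = 1.98e-05), the mitochondrial elongation factor Gfm1 (log2 -0.41) and Ptcd3 (log2 -0.35) followed. The 5 male falls were 3 without male sham 2 or without male sham 4, 1 with the 18S covariate and 0 with the Gapdh covariate. In females the 3 falls were 2 and 1 with these covariates, and over both sexes the 5 falls were 2 with each. The list median in males was -0.13, against -0.23 with the 18S covariate and -0.20 with the Gapdh covariate. The rises, of Hif1a and Lonp1 in males and of Mrpl12 over both sexes, were named after their values were seen. In males the Hif1a call was lost without any of male TAC 1, 2 and 5 and male sham 1, 3 and 4, and the Lonp1 call without any of male TAC 2, 4 and 5 and male sham 1, 3 and 4. The Mrpl12 call was lost without any of 8 arrays (male TAC 4 and 5, male sham 1 and 4, female TAC 1, and female sham 2, 3 and 4). The number of partners that fell in males was 2 without male TAC 5, without female TAC 5 or without male sham 3, and 3 with the dimmest 60% of probe sets left out.

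**Figure D5:**
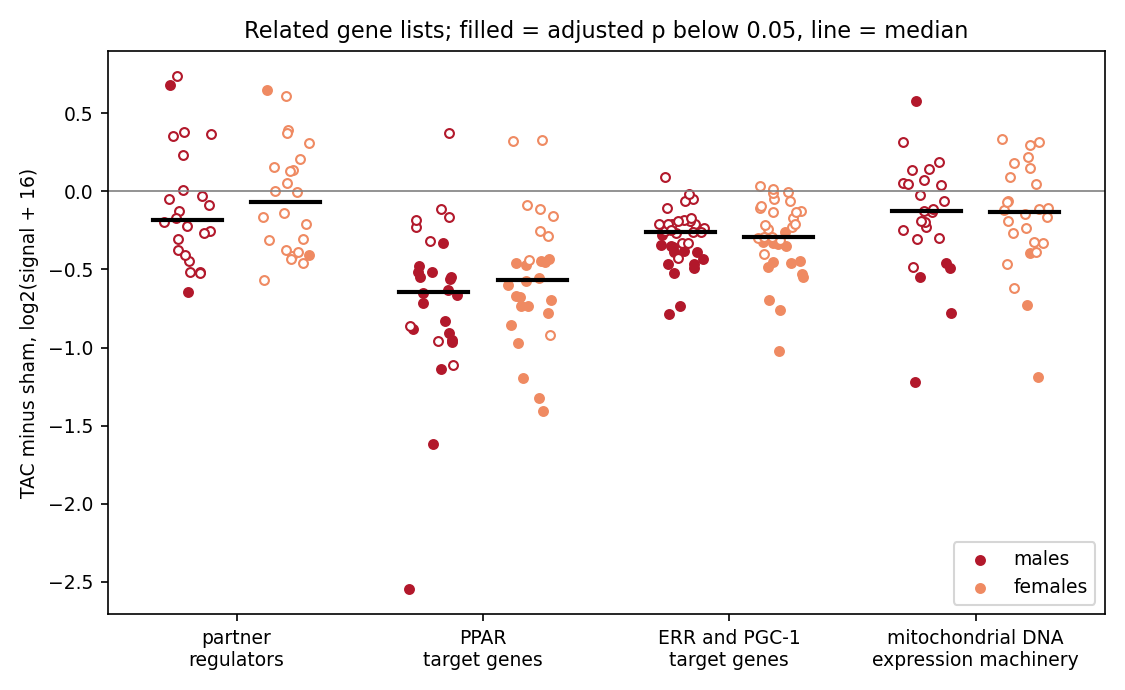
TAC minus sham in log2(signal + 16) for each measured gene of the 4 related lists, males in dark red left of females in orange, filled where adjusted p is below 0.05, with the list median as a black line. The PPAR target medians lie at -0.64 in males and -0.56 in females, and those of the partner regulators at -0.18 and -0.07.

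Genes outside the set whose signals were most like a member's over the 16 arrays are given as descriptions, since the arrays share the group differences and the scaling. They were picked for the highest r among all other genes tested, and that choice itself raises the r of those named. The same holds for r after subtraction of group means, and shared regulation was not tested. Ppargc1a on 1437751_at was most like Dnm1l, a mitochondrial fission protein (r = 0.87, and 0.73 after subtraction of group means), Ptgr2 (0.85 and 0.73) and Tacc2 (0.83 and 0.69). Ppara was most like Bet1 (0.79 and 0.78), Men1 (0.77 and 0.79) and Fgf4 (0.75 and 0.80), and Esrra most like Tex43 (0.83 and 0.85), Nol6 (0.82 and 0.86) and Mtch2 (0.78 and 0.80). Tfb2m was most like Luc7l2 (0.92 and 0.76) and Gabpa most like Cops2 (0.90 and 0.73). For the members not called, the highest r was with Mlx for Ppargc1b (0.82), Ext2 for Rxra (0.82), Ubqln2 for Rxrg (0.84) and Zkscan1 for Tfam (0.80).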

How the data were processed

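Left ventricular RNA of 16 mice was measured on 16 arrays. The deposited values are linear signal intensities computed by the authors with GCOS, per the submitters' processing notes. Its version and settings are not given in the sources used here. The values showed a global scaling (2% trimmed mean of 500.213 to 500.251), which was kept. Of 22690 probe sets, 64 controls were left out, and then the dimmest 40% by mean log2 signal (limit 130.817), leaving 13576. Log2(signal + 16) was fitted with limma 3.58.1 in R 4.3.3, with 4 group means, a moderated spread that follows intensity, p taken on both sides and adjusted by Benjamini-Hochberg across all 13576. Every adjusted p comes from limma. A self-test on simulated data was run before the fit. Symbols come from the platform annotation, where 20380 probe sets had 1, 691 several and 1555 none. Named genes are all members, up to 4 genes of each list by lowest p over both sexes on the brightest probe set, and the genes most like a member over the arrays. Lists were counted on 1 probe set per gene. The members and lists were chosen with earlier results of these data known. Alternatives were quantile normalization, median centring, pseudocounts 1 and 64, a stricter limit (dimmest 60% left out), no limit, no trend, array weights, only the groups compared, a replicate block, 18S or Gapdh covariates, and each array left out. The labels call the 4 arrays of a group biological replicates. Detection calls were not used here, and the number of arrays limits precision.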

Additional observations from a re-analysis of the deposited data

Results flagged for a closer look

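Of 64 groups of 4 arrays, over the 16 member probe sets, 5 held an array far from the other 3 by Dixon's 95% criterion (a gap to the nearest array that takes up most of the group's range), where chance gives about 1 in 20 groups. Ppara in male TAC 5 read 806.3, above the other male TAC arrays (498 to 529.5). Male TAC 5 also had a high 18S signal, 13.16 on the log2 scale. Ppargc1a on 1437751_at read 1567.7 in female sham 1, while the other female sham arrays lay together at 1259.9 to 1263. Rxra on 1454773_at read 252.6 in female sham 3, below the others. Tfam read 1105.3 in female TAC 2, above 652.8 to 700.5 in the others. Gabpa on 1450665_at read 335 in female sham 3, below 386 to 394.5 in the others, and still above every female TAC array.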

How the results depend on the processing

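The number of member probe sets called in males, 5 in the reported setting, was 2 with median centring, 3 with no filter, 3 with no intensity trend, 2 with the replicate block, 1 with 18S and 0 with Gapdh as the covariate, and 2 to 5 with 1 array left out, lowest without male TAC 2, male TAC 4 or male sham 3. In females it was 3, and 0 with the Gapdh ratio; over both sexes it was 5, with 2 under the 18S signal and 0 under the Gapdh ratio. Over all probe sets in males, 2422 of 13576 were called in the reported setting and 2277 with median centring. There were 2140 of 22626 with no filter, 2183 of 13576 with no intensity trend and 2087 with the replicate block. Without male TAC 2, male TAC 4 or male sham 3 there were 1812, 2212 and 1872. Those with the covariates are given above. The cause of the changes in member counts was not tested. Every other count of called members stayed within 1.5 times the reported one, and those between the sexes were 0 under all settings run. All called members kept their direction under every setting. The following values, all of probe sets that were not called in that comparison, changed sign. With median centring the value was 0.028 for 1460652_at of Esrra in males, 0.048 for 1448224_at of Tfam in males, 0.070 for 1449051_at of Ppara in females, 0.024 for 1434099_at of Ppargc1a in females and 0.065 for 1460652_at of Esrra in females. With quantile normalization the value was 0.011 for 1448224_at of Tfam in males. With array weights the value was 0.0071 for 1448224_at of Tfam in males and 0.0024 for 1449051_at of Ppara in females. With the replicate block the value was 0.033 for 1448224_at of Tfam in males and 0.047 for 1449051_at of Ppara in females. Under the 18S covariate the value was 0.19 for 1434100_x_at of Ppargc1a in males, 0.21 for 1449051_at of Ppara in females, 0.090 for 1434100_x_at of Ppargc1a in females, 0.0040 for 1454773_at of Rxra in females, -0.0055 for 1425762_a_at of Rxra in females and -0.048 for 1448224_at of Tfam in females. Under the Gapdh covariate the value was 0.27 for 1434100_x_at of Ppargc1a in males, 0.20 for 1454773_at of Rxra in males, 0.081 for 1425762_a_at of Rxra in males, 0.050 for 1418782_at of Rxrg in males, 0.16 for 1449051_at of Ppara in females, 0.16 for 1434099_at of Ppargc1a in females, 0.18 for 1434100_x_at of Ppargc1a in females, 0.26 for 1454773_at of Rxra in females, 0.049 for 1418782_at of Rxrg in females and -0.054 for 1448224_at of Tfam in females. With 1 array left out, ranges that crossed 0 were -0.13 to 0.13 for 1434099_at of Ppargc1a in males, -0.11 to 0.042 for 1449945_at of Ppargc1b in males, -0.14 to 0.13 for 1460652_at of Esrra in males, -0.083 to 0.068 for 1448224_at of Tfam in males, -0.27 to 0.19 for 1449051_at of Ppara in females, -0.20 to 0.052 for 1460652_at of Esrra in females, -0.10 to 0.79 for 1425762_a_at of Rxra in females and -0.047 to 0.20 for 1448224_at of Tfam in females. Deviations from the group means of same-numbered TAC and sham arrays correlated at -0.03 to 0.12 in males and -0.01 to 0.05 in females. These few pairs were not set against differently numbered ones, so they cannot tell whether the replicate numbers pair the arrays. The replicate block is given as a check. With that block, the calls of 1450665_at of Gabpa had limma adjusted p = 0.0574 in females and 0.0513 over both sexes. The male calls had limma adjusted p = 0.0754 for 1437751_at and 0.1335 for 1456395_at of Ppargc1a, and 0.1341 for 1450664_at of Gabpa. Among the related lists, 97 of 672 counts moved by more than 1.5 times. Without detection calls, a dim signal such as that of Ppard limits what can be said.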
